A study of Rattus norvegicus with 24 samples.

Results

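Naked cuticle homolog 2 (Nkd2, ENSRNOG00000016103), the Frizzled receptors Fzd6 (ENSRNOG00000004660) and Fzd4 (ENSRNOG00000016848), and Dickkopf-3 (Dkk3, ENSRNOG00000016343) were followed as regulators and receptors of Wnt signaling in the hippocampus of rats of the bHR line (bred High Responder) and of the bLR line (bred Low Responder). They are 4 of the 32883 genes counted, and they were taken by name, with the difference between the lines in these same rats already known. The Log2FC, SE and FDR of each gene for lineage are therefore a description of genes chosen by that contrast, and only the measures that played no part in the choice (sex, the interaction of lineage with sex, the RNA metrics of the libraries, locomotor activity within a line, and the variation of the 4 genes with each other) are given as tests.

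Wnt ligands are secreted proteins that bind Frizzled receptors at the cell surface together with a co-receptor such as Lrp5. In the beta-catenin branch, binding recruits Dishevelled and halts the complex in which Gsk3 phosphorylates beta-catenin, so that beta-catenin enters the nucleus and acts with TCF and LEF proteins. Nkd2 binds Dishevelled and dampens this branch. Fzd4 serves as receptor for Wnts and for Norrin and is known for its role in the blood vessels of the retina and brain. Fzd6 is best known for planar cell polarity. Dkk3 is a secreted glycoprotein and the divergent member of the Dickkopf family, whose other members block Wnt co-receptors. In the hippocampus, Wnt signaling is known to act in adult neurogenesis and at synapses.

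The lines were selectively bred for high (bHR) or low (bLR) exploration of an unfamiliar arena, and the labels name no drug treatment or engineered allele. A lineage difference is a difference between these bred lines. Whole hippocampus of 24 adult F0 rats was sequenced as poly-A-selected libraries after testing of locomotion (LocoScore) and of the elevated plus maze. The subgroups were 6 bHR males (163 to 165 days old by the labels), 6 bHR females (187 to 191 days), 6 bLR males (151 to 165 days) and 6 bLR females (188 to 192 days). The sample labels place 1 male and 1 female in each of 12 families, whereas the breeding notes describe distinct families and a younger age at dissection. The sexes were dissected on different days, so sex, age and day cannot be told apart. One bHR female, from family H05, was left out for an RNA integrity number (RIN) of 6.3, which leaves 23 rats. Reads counted on genes ran from 16824899 to 28443049 per rat, and levels are given in CPM, the count per 1000000 reads of a library whose size was scaled by TMM normalization. On this scale a floor of 3 counts equals 0.0866 to 0.216 CPM, depending on the rat, which covers counting error only. Of 88 marker symbols of the cell types that whole hippocampus could hold, 12 could be matched to a gene ID. Among them, Slc17a7, the vesicular glutamate transporter of hippocampal principal neurons, was read at 2386 to 30116 counts per rat. Its level differed widely between rats, from 160 to 1094 CPM. It fell with the share of ribosomal RNA in the library (Log2FC -0.81 per percentage point, FDR = 1.37e-07, edgeR). Of all genes tested, 76.4% had FDR < 0.10 for this share. None of the 10 endothelial or 8 microglial markers could be matched.

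Nkd2 was higher in bLRs, the difference for which it was chosen. It had 88 to 366 counts per rat. The 11 bHRs averaged 5.98 ± 1.44 CPM (SD), and the 12 bLRs averaged 9.81 ± 2.75 CPM (SD). The 6 bHR males had a lowest value of 5.11, a median of 5.60 and a highest value of 8.53 CPM, and the 5 bHR females had 4.33, 4.92, 4.98, 5.57 and 7.74 CPM. The bLR males ranged from 6.42 to 14.3 CPM (median 9.93), and the bLR females from 7.33 to 13.3 CPM (median 9.38). The lines overlapped: 7 of the 12 bLRs lay above the highest bHR, 8 of the 11 bHRs lay below the lowest bLR, and the bLR was the higher rat in 119 of the 132 pairs of 1 bHR and 1 bLR. Male bLRs fell apart in CPM, with 3 rats at 12.4, 12.5 and 14.3 CPM and the other 3 at 6.42, 6.53 and 7.50 CPM, within the range of the bHR males. Female bLRs showed no such gap in CPM, and 5 of the 6 lay above every bHR female. With sex, %rRNA and %intergenic removed from log2 CPM, 10 of the 12 bLRs lay above the highest bHR. The bLR was then higher in 125 of the 132 pairs. On that scale the bLR male of family L07 (3.09) lay above the highest bHR male (3.00). The order of the subgroup means was bHR females, bHR males, bLR females and bLR males, and only the step from bHR males to bLR females, 3.32 CPM, was larger than the larger SD of the 2 subgroups (2.10 CPM). In a bulk sample, fewer cells of a type and less RNA per cell cannot be told apart.

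**Figure D1:**
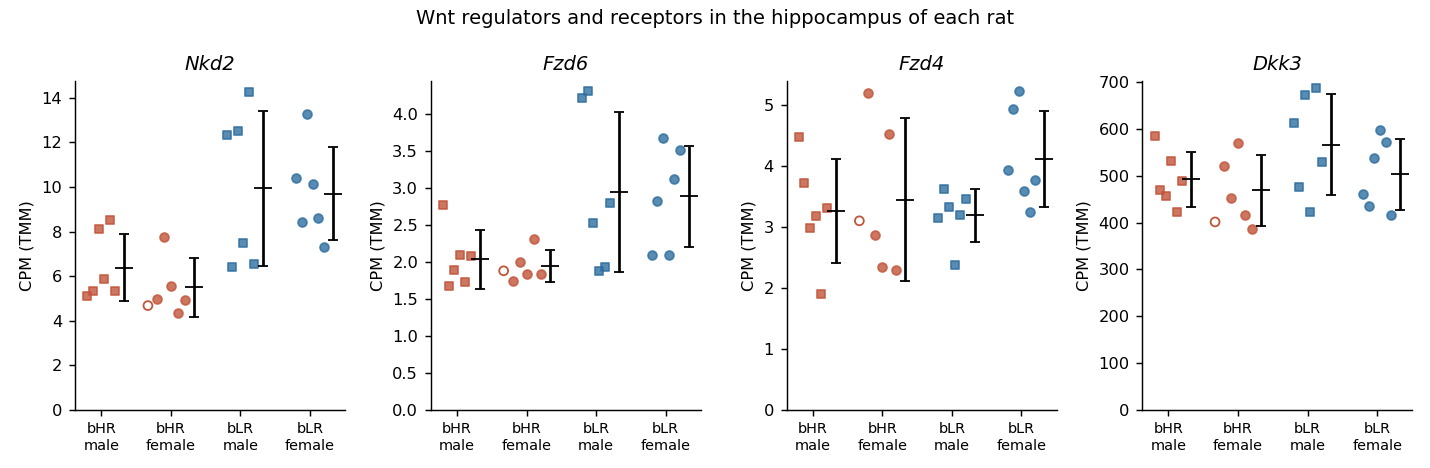
Level of each gene in CPM after TMM normalization (vertical axes, starting at 0 and on a scale of their own for each gene) in every rat, by subgroup of line and sex. Squares are males, circles are females, the open circle is the bHR female left out for its RIN, and bars show the subgroup mean ± SD over the 23 rats; 7 of the 12 bLRs lie above every bHR kept for Nkd2 and for Fzd6, 4 for Dkk3 and 1 for Fzd4.

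Fitted with sex, %rRNA and %intergenic as covariates, the Log2FC of Nkd2 (bLR vs. bHR) was 0.80 (SE 0.16, FDR = 0.00941, quasi-likelihood test of edgeR, adjusted over 13838 genes by Benjamini-Hochberg), or 1.74-fold, with a 95% interval of 1.39 to 2.18-fold. It was the contrast by which the gene was selected. Of the 4 genes, Nkd2 alone passed FDR < 0.10 for lineage, where 1.34% of all genes tested passed. The Log2FC was 0.69 in males alone (SE 0.23, FDR = 0.581) and 0.81 in females alone (SE 0.20, FDR = 0.377), and neither fit called it. These fits of 1 sex held %rRNA as their only technical covariate, so they differ from the main fit in model as well as in rats. Leaving out any single rat of the 23, the Log2FC stayed between 0.73 and 0.86, and it passed the threshold each time, with a largest FDR of 0.0595 without the bHR male of family H02. In Log2FC, 82 of the 13838 genes were as high as Nkd2 or higher.

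Fzd6 was measured with few reads, 26 to 101 counts per rat, so that counting alone gives a coefficient of variation of 13.2% at its mean count. The 11 bHRs averaged 1.99 ± 0.32 CPM (SD), against 2.91 ± 0.86 CPM (SD) in the 12 bLRs. The bHR males had 1.67 to 2.77 CPM (median 1.98), and the bHR females 1.75, 1.83, 1.84, 1.99 and 2.31 CPM. The bLR males had 1.88 to 4.31 CPM (median 2.66), and the bLR females 2.09 to 3.67 CPM (median 2.97). The highest values were those of bLR males of families L01 and L03 (4.21 and 4.31 CPM), and the SD was wider in bLRs (1.08 CPM in males and 0.68 in females) than in bHRs (0.40 and 0.22). Of the 12 bLRs, 7 lay above the highest bHR, and the bLR was the higher rat in 116 of 132 pairs. With sex, %rRNA and %intergenic removed from log2 CPM, these counts were 8 of the 12 and 109 of 132. The step from bHR males to bLR females, 0.85 CPM, was the only one between neighboring subgroups that was larger than their larger SD (0.68 CPM).

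The Log2FC of Fzd6 for lineage, a value by which it was chosen, was 0.41 (SE 0.14, 95% interval 0.12 to 0.71, FDR = 0.257, edgeR), short of the threshold. Nkd2 and Fzd6 were 2 of the 4 genes with an unadjusted p under 0.05, which 9.96% of all genes had. The call on Fzd6 turned with the covariates and the rats: its Log2FC was 0.56 (FDR = 0.0957) with %rRNA as the only technical covariate and 0.49 (FDR = 0.0727) with all 24 rats in the model. Its Log2FC was 0.33 without the bHR male of family H02, the lowest of the values with 1 rat left out. That rat had the highest Fzd6 level of any bHR, 2.77 CPM, and the highest %intergenic of the 23 rats, 13.5%. %intergenic, the share of bases read outside annotated genes, had a higher median in bLRs (10.8%, range 8.92 to 12.7%) than in bHRs (9.44%, range 8.74 to 13.5%). Its part in the lineage difference of Fzd6 was not tested beyond these fits.

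Fzd4, the other Frizzled receptor, did not separate the lines. It had 33 to 164 counts per rat and averaged 3.35 ± 1.04 CPM (SD) in the 11 bHRs, compared with 3.65 ± 0.78 CPM (SD) in the 12 bLRs. The bHR males had 1.90 to 4.47 CPM (median 3.24), the bHR females 2.30, 2.34, 2.88, 4.53 and 5.20 CPM, the bLR males 2.38 to 3.62 CPM (median 3.26) and the bLR females 3.25 to 5.23 CPM (median 3.85). The lines overlapped throughout in males, where the bLR was the higher rat in 18 of 36 pairs, and only 1 of 12 bLRs lay above the highest bHR. No step between neighboring subgroup means was larger than the larger SD. Its Log2FC for lineage was 0.08 (SE 0.12, FDR = 0.890, edgeR), and the 95% interval of 0.88 to 1.26-fold leaves room for a modest difference either way. In females alone the Log2FC was 0.32 and in males alone 0.02, neither of them called (smallest FDR over all alternatives 0.461). Both of these fits left out %intergenic. With both sexes in the model and %rRNA as the only technical covariate, the Log2FC was 0.17.

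Dkk3 was read deeply in every rat, with 5866 to 17522 counts, so that counting error was at most 1.31% and its spread is that of the rats and libraries. The bHR mean was 481.6 ± 64.1 CPM (SD, n = 11) and the bLR mean 535.3 ± 94.8 CPM (SD, n = 12). The bHR males had 423.1 to 585.1 CPM (median 478.6), and the bHR females 385.6, 416.2, 452.1, 520.9 and 569.3 CPM. The bLR males had 423.2 to 687.5 CPM (median 570.8), and the bLR females 417.0 to 598.5 CPM (median 499.0). Of the 12 bLRs, 4 lay above the highest bHR, and the bLR was the higher rat in 90 of 132 pairs. With sex, %rRNA and %intergenic removed from log2 CPM, these counts were 1 of the 12 and 95 of 132. The 3 bLR males with the highest Nkd2, of families L01, L06 and L09, also had the highest Dkk3 (612, 673 and 688 CPM). Among bHR males, in contrast, the 2 highest in Nkd2, of families H05 and H11 (8.09 and 8.53 CPM), had the lowest Dkk3 (457 and 423 CPM). The Log2FC of Dkk3 for lineage was 0.16 (SE 0.10, FDR = 0.637, edgeR), with a 95% interval of 0.97 to 1.30-fold, and no step between neighboring subgroup means exceeded the larger SD.

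**Figure D2:**
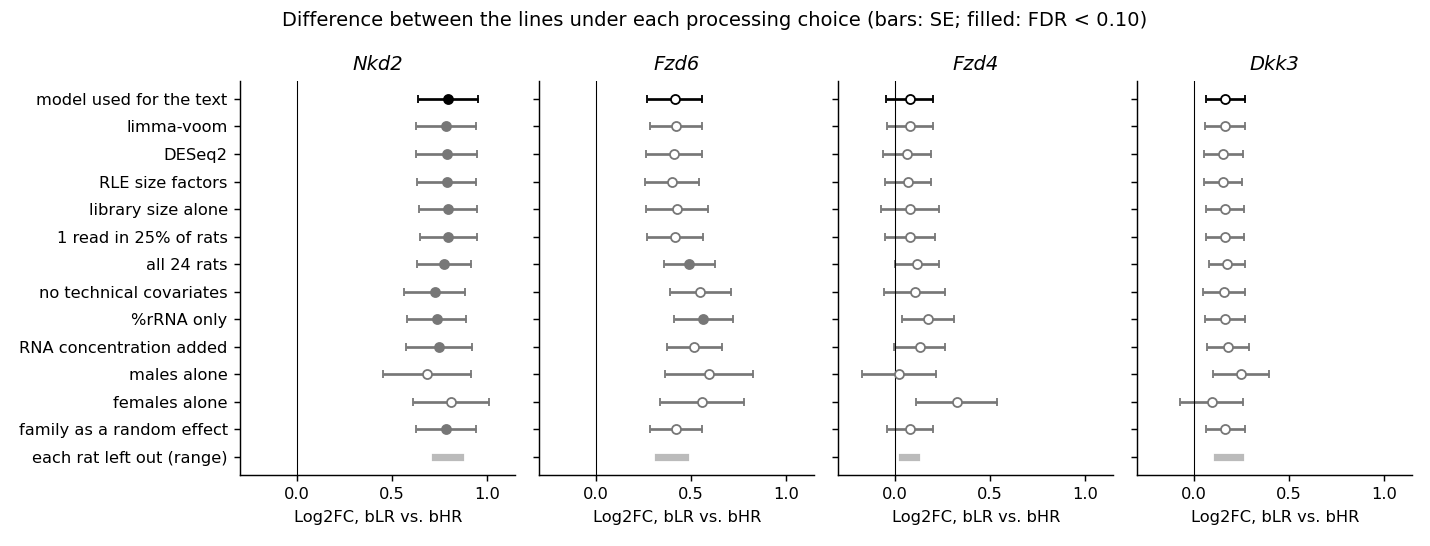
Log2FC for bLR vs. bHR (horizontal axis) of each gene under the model used in the text (black) and under each alternative (gray), with bars for the SE and filled points where FDR < 0.10; the lowest row of each panel shows the range with 1 rat left out. Over the alternatives Nkd2 lies at 0.69 to 0.81 (0.73 to 0.86 with 1 rat left out) and is called wherever both sexes are in the model, Fzd6 lies at 0.40 to 0.59 (0.33 to 0.47 with 1 rat left out), and the values of Fzd4 and Dkk3 stay nearer to 0. The fits of 1 sex hold %rRNA as their only technical covariate.

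Sex played no part in the choice of the genes, and none of the 4 passed the test for it. Of all genes tested, 0.354% did (49 of 13838, and 19 of 13838 with family as a block that pairs the male and female of 1 family code). The Log2FC, female vs. male, was -0.16 for Nkd2 (95% interval -0.46 to 0.15, FDR = 0.697), -0.06 for Fzd6 (-0.33 to 0.22, FDR = 0.888), 0.12 for Fzd4 (-0.13 to 0.37, FDR = 0.710) and -0.14 for Dkk3 (-0.34 to 0.06, FDR = 0.591, edgeR). The intervals leave out a sex difference of 1.5-fold for all 4 genes.

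The lineage difference was also compared between the sexes. The interaction of lineage and sex, positive where bLR exceeded bHR by more in females, was 0.16 for Nkd2 (95% interval -0.49 to 0.80), 0.04 for Fzd6 (-0.61 to 0.69), 0.30 for Fzd4 (-0.25 to 0.84) and -0.11 for Dkk3 (-0.55 to 0.33), all at FDR = 0.9999 (edgeR). In that model, with %rRNA as its only technical covariate, the lineage Log2FC in males and in females was 0.66 and 0.82 for Nkd2, 0.55 and 0.59 for Fzd6, 0.03 and 0.32 for Fzd4, and 0.21 and 0.10 for Dkk3. No gene passed the interaction test (0.0% of 13838, with 325 at an unadjusted p under 0.05, and 0 genes with limma-voom), and the wide intervals do not show that the sexes were alike. With %intergenic added to the model, 0 genes passed (smallest FDR 0.548, edgeR), but 1143 had an unadjusted p under 0.05. The interaction was then 0.21 for Nkd2, -0.12 for Fzd6, 0.17 for Fzd4 and -0.11 for Dkk3, so its sign for Fzd6 depends on this covariate.

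Both receptors passed the test for an RNA metric of the libraries. Fzd4 fell with the share of ribosomal RNA (%rRNA), by a Log2FC of -0.28 per percentage point (SE 0.08, FDR = 0.00323, edgeR), over libraries of 1.23 to 3.98% rRNA. The 2 libraries with the least rRNA, of bHR females of families H02 and H11, had Fzd4 at 5.20 and 4.53 CPM. The 2 with the most, of the bLR male of family L07 and the bLR female of family L10, had 2.38 and 3.76 CPM. The mean over the 23 rats was 3.51 CPM. Nkd2 (-0.14), Fzd6 (-0.07) and Dkk3 (-0.07) did not pass for %rRNA, whereas 76.4% of all genes did. With %intergenic, Fzd6 rose by 0.17 per percentage point (SE 0.06, FDR = 0.0117) and Fzd4 by 0.13 (SE 0.05, FDR = 0.0272, edgeR), where 68.8% of all genes passed in either direction. Nkd2 (-0.07, FDR = 0.366) and Dkk3 (FDR = 0.936) did not pass. Against such a background, 1 of 4 genes for %rRNA and 2 of 4 for %intergenic do not set these genes apart. Without the bHR male of family H02, Fzd4 fell just short of the threshold for %intergenic (FDR = 0.10003), with a Log2FC of 0.14 per percentage point and a larger SE (0.07), and Dkk3 passed for %rRNA without the bHR female of family H08 (-0.16, FDR = 0.0478). These alternatives were added after seeing the data.

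**Figure D3:**
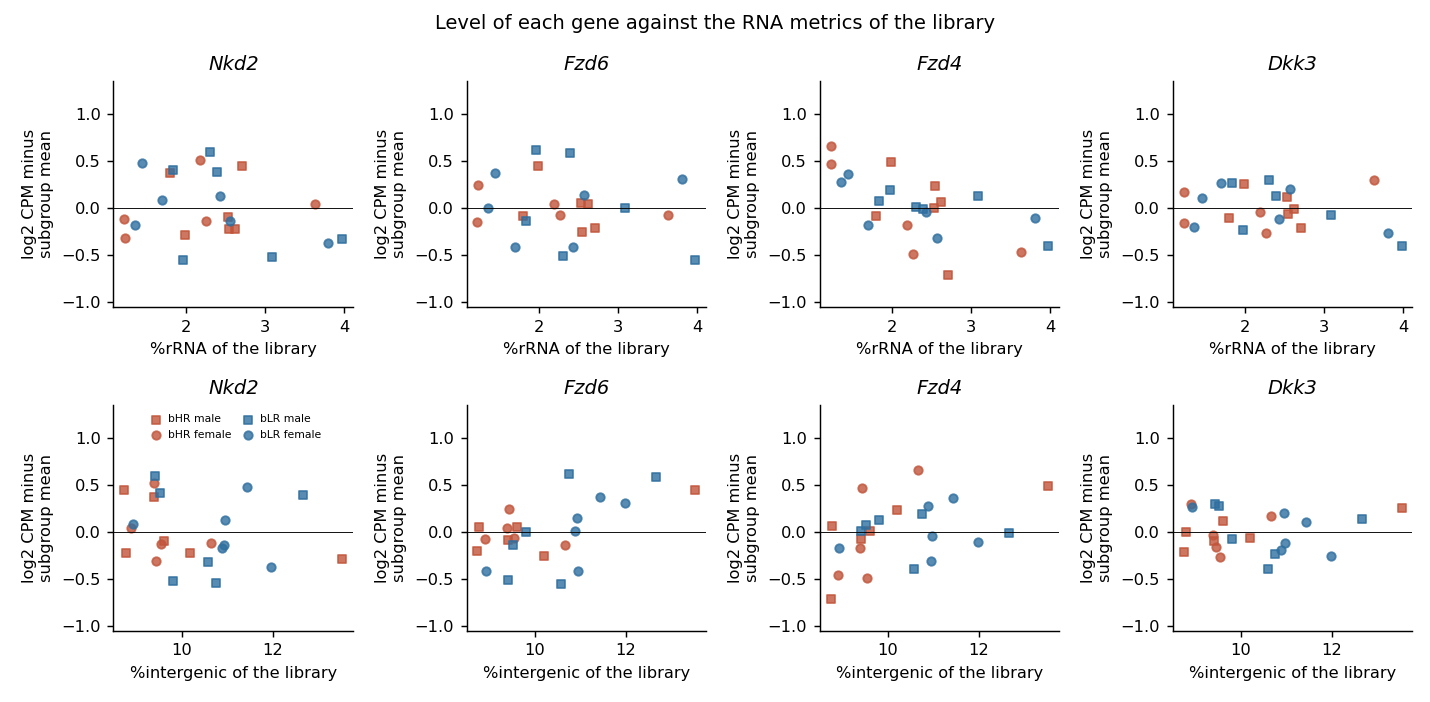
Log2 CPM of each gene minus the mean of its subgroup (vertical axes) against the %rRNA (upper row) and the %intergenic (lower row) of each library, for the 23 rats, with squares for males, circles for females, red for bHRs and blue for bLRs. Fzd4 declines toward libraries with more rRNA, Fzd6 and Fzd4 lie higher in libraries with more intergenic reads, and the bHR male of family H02 is the point farthest right in the lower row.

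Within subgroups, no pair of the 4 genes passed the test of varying together from rat to rat. Over the 6 pairs, after subtracting subgroup means, Pearson's r was largest for Nkd2 with Dkk3 (r = 0.40, p = 0.106, rho = 0.47, p = 0.0563, 100000 permutations within subgroups, n = 23, adjusted over 6 pairs 0.319 and 0.329). The value of r for this pair differed in sign between subgroups, at 0.87 in bLR males, 0.50 in bLR females, 0.20 in bHR females and -0.75 in bHR males. The receptors Fzd6 and Fzd4 had r = 0.36 (p = 0.0378, adjusted 0.227, permutation test) and rho = 0.32 (p = 0.110, adjusted 0.329). Without the 2 rats farthest from the median of the first gene, r was 0.36 for Nkd2 with Dkk3 and 0.38 for Fzd6 with Fzd4. Once %rRNA and %intergenic were removed as well, r was 0.34 for Nkd2 with Dkk3, -0.03 for Fzd6 with Fzd4 and -0.43 for Nkd2 with Fzd4 (p = 0.0409, adjusted 0.246, permutation test). The remaining pairs had r between -0.25 and 0.22 after subtraction of the subgroup means.

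LocoScore separates the lines completely (1533 to 2949 in bHRs and 23 to 101 in bLRs), so its relation to each gene was computed within a line, with the means of the sexes subtracted. In bHRs, r was 0.37 for Nkd2 (p = 0.283), -0.19 for Fzd6 (p = 0.594), 0.23 for Fzd4 (p = 0.523) and -0.01 for Dkk3 (p = 0.974, 100000 permutations within sex, n = 11). In bLRs, r was -0.07 for Nkd2 (p = 0.878), -0.14 for Fzd6 (p = 0.738), -0.12 for Fzd4 (p = 0.696) and 0.25 for Dkk3 (p = 0.496, permutation test, n = 12). No relation passed over the 8 tested (adjusted p = 0.974 for each). Spearman's rho ran from -0.41 to 0.25 (smallest p = 0.244, permutation test, adjusted 0.944). Without the 2 rats of most extreme LocoScore, r for Nkd2 was 0.61 in bHRs and -0.80 in bLRs, so the values over all rats rest on a few animals, and LocoScores of bLRs span a narrow range.

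Genes of other steps of the pathway showed no called difference. Of 105 Wnt pathway symbols in the lists, 13 could be matched to an ID, 9 of them besides the 4 genes above, and all 9 passed the filter on low values. None was called for lineage or for sex, where 1.34% and 0.354% of all genes tested were. With shares this low, the absence of a call among 9 genes does not set them apart. Their median Log2FC for lineage was 0.03 (range -0.20 to 0.28), against -0.004 over all genes tested, and 5 of the 9 were positive. For sex their median was 0.20 (range -0.25 to 0.38), against -0.03 over all genes, and 8 of the 9 were positive.

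By step of the pathway, the ligand Wnt11 had a lineage Log2FC of 0.03 (SE 0.22) and was read at 8 to 42 counts per rat. Rspo3, a secreted R-spondin that raises the level of Frizzled receptors at the surface, averaged 12.7 ± 3.99 CPM (SD) over the 11 bHRs, compared with 17.2 ± 5.15 CPM (SD) over the 12 bLRs, at a Log2FC of 0.28 (SE 0.18, FDR = 0.642, edgeR). The co-receptor Lrp5 had a Log2FC of -0.20 (SE 0.28). Among the cytoplasmic genes, the Dishevelled binders Dact2 and Dact3 had -0.09 (SE 0.17) and 0.22 (SE 0.13), the kinase Gsk3a had -0.13 (SE 0.13), and Btrc, the F-box protein that marks beta-catenin for degradation, had -0.17 (SE 0.11). The nuclear effector Tcf7l2 had 0.28 (SE 0.23), and cyclin D1 (Ccnd1), a known target of beta-catenin, had 0.15 (SE 0.14). No planar cell polarity gene could be matched. Of the 9 genes, 8 passed for %rRNA, where 76.4% of all genes tested passed, among them Lrp5 (-0.96 per percentage point), Gsk3a (-0.83) and Tcf7l2 (0.62).

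**Figure D4:**
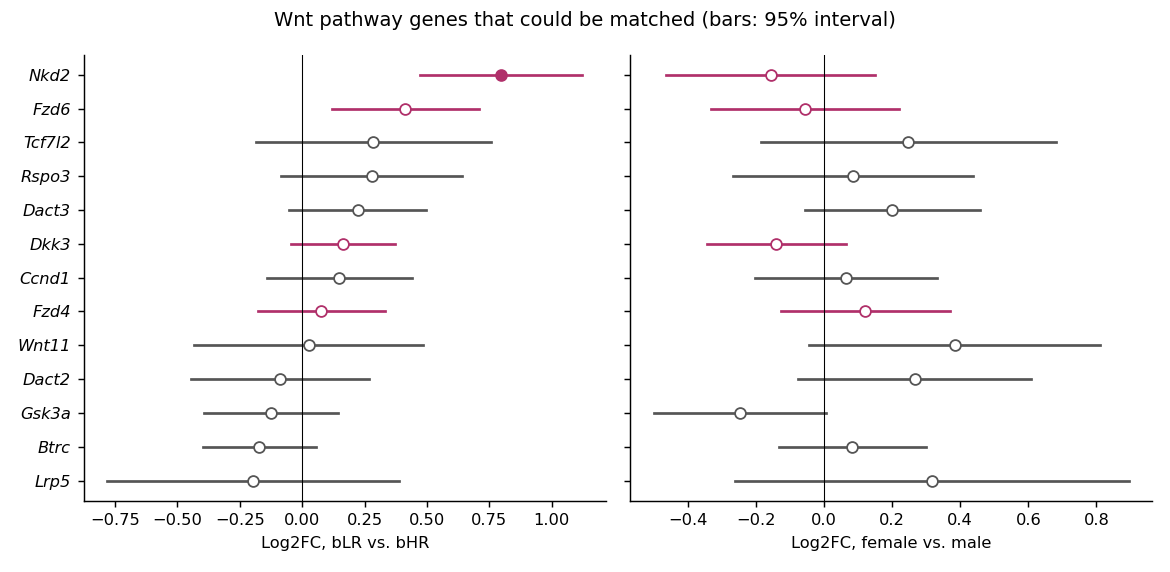
Log2FC with its 95% interval (horizontal axes) for bLR vs. bHR (left) and female vs. male (right) of the 13 Wnt pathway genes that could be matched, ordered by the lineage value, with the 4 genes of interest in magenta and filled points where FDR < 0.10. Nkd2, chosen on the lineage contrast, is the only filled point, and all intervals for sex cross 0.

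Nkd2, Fzd4 and Dkk3 lie on chromosome 1 in Rnor6, at 32058044 to 32084877 on the plus strand, at 153589471 to 153598375 on the plus strand and at 176940693 to 176983045 on the minus strand. The position of Fzd6 was not used here. Within 500 kb of them lay 9, 4 and 4 tested genes with a symbol, and none of these 17 passed for lineage. Of all genes tested, 1.34% passed, so the absence of a call among 17 does not set these neighbors apart. Around Nkd2 the Log2FC ran from -0.25 to 0.29 (smallest FDR that of Lpcat1, 0.561, edgeR), against 0.80 for Nkd2, which was chosen for that value. The nearest gene, Slc12a7, a potassium-chloride cotransporter, lies 1.88 kb away on the opposite strand, the 3′ ends of the 2 genes facing each other, and had a Log2FC of 0.29 (SE 0.22, FDR = 0.713). Around Fzd4 the values ran from -0.13 to 0.16, and around Dkk3 from -0.07 to 0.13, with 0.04 for Usp47, which lies 2.93 kb from it on the opposite strand. Reads were assigned by strand, so these neighbors were counted apart from the genes they adjoin.

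**Figure D5:**
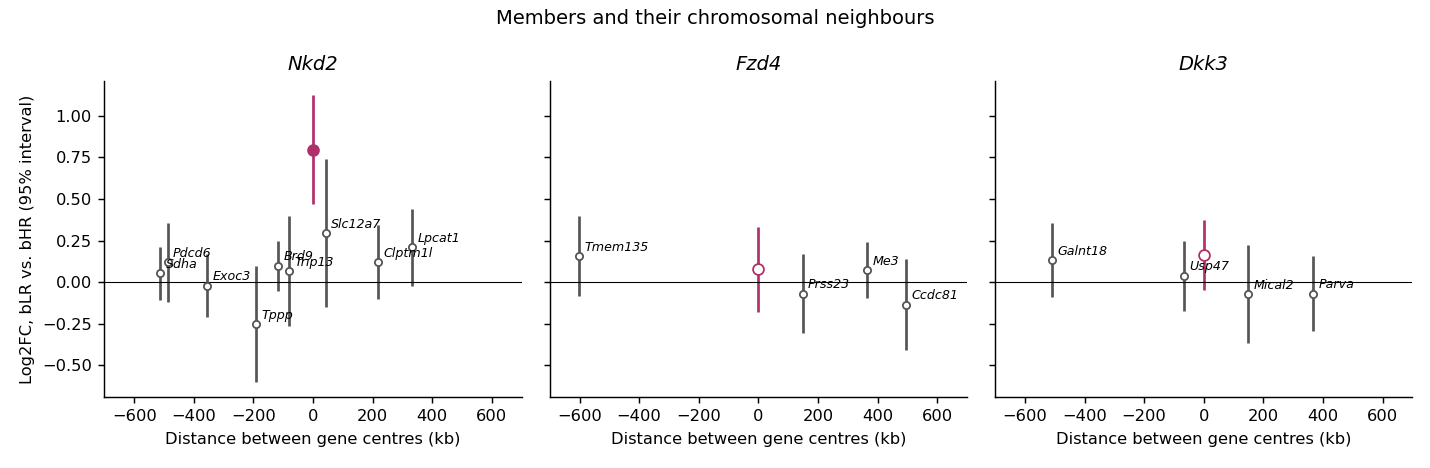
Log2FC for bLR vs. bHR with its 95% interval (vertical axis) against the distance in kb between the center of each gene and that of Nkd2, Fzd4 or Dkk3 (magenta, at 0), for the genes within 500 kb that carry a symbol (gray). Nkd2 (filled, FDR < 0.10) was chosen for its large value and lies above its 9 neighbors, though the interval of Slc12a7 (-0.15 to 0.74) overlaps its own (0.47 to 1.12). Fzd4 lies among its 4, and Dkk3 (0.16) lies just above its 4, whose highest value is 0.13, with intervals that overlap.

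The genes most like each of the 4 were taken by Pearson's r over the 23 rats after removing lineage, sex, %rRNA and %intergenic from log2 CPM, as a description with no test, since the highest of 13837 values is high in any case. For Nkd2 the highest r was that of ENSRNOG00000004327 (r = 0.78), which had a lineage Log2FC of 0.76 (FDR = 0.00198) and was singled out after its values were seen, and LOC100360012 followed (r = 0.75, lineage Log2FC 0.35). For Fzd6 it was Pyroxd2 (r = 0.85, lineage Log2FC 0.33). For Fzd4, Parp8 and Utp15 (r = 0.82 for each) ranked 2 and 3, and for Dkk3, Acat2, an enzyme of lipid metabolism, ranked 3 (r = 0.92). None of the 4 genes was near the top of another's list: Dkk3 ranked 2867 of 13837 for Nkd2, and Fzd4 ranked 7883 for Fzd6.

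The 12 matched markers of other cell types gave no called lineage difference, with Log2FC from -0.25 to 0.39. Of all genes tested, 1.34% were called for lineage, so this does not set the markers apart. For %rRNA, 10 of the 12 passed, where 76.4% of all genes did. The summed level of Vtn and Acta2, the 2 of 8 pericyte and mural markers matched, was 5.06 to 16.3 CPM (median 10.4) in bHRs and 2.67 to 26.8 CPM (median 12.3) in bLRs, and Vtn had the smallest FDR of the 12 (Log2FC 0.32, FDR = 0.513, edgeR). The summed level of Aqp4, Gfap and Slc1a3, 3 of 7 astrocyte markers, was 1002 to 2230 CPM in bHRs and 1239 to 2140 CPM in bLRs. Folr1, 1 of 9 choroid plexus markers, had a median of 6.51 CPM in bHRs (highest 55.2) and of 7.41 CPM in bLRs (highest 41.7), and Tcf7l2, 1 of 8 thalamic and habenular markers, had medians of 2.78 and 5.41 CPM, with highest values of 5.69 and 11.6 CPM. No matched marker was at 0 in any rat. The part of these cell types in the levels of the 4 genes was not tested.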

How the data were processed

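The study sequenced poly-A RNA of whole hippocampus from F0 rats. The authors mapped reads to Rnor6 (STAR 2.7.3a), retained only those with 1 hit and assigned them by strand to Ensembl genes (Subread 2.0.0). The table they deposited holds raw gene counts with no normalization or filter. Groups, families and RNA metrics were read from the sample labels. Genes reaching 1 CPM in 25% of the rats or more (6 of 23) were tested with the quasi-likelihood test of edgeR 4.0.16 (R 4.3.3) after TMM normalization, in a model of lineage and sex with %rRNA and %intergenic as covariates, at FDR < 0.10 (Benjamini-Hochberg). The interaction model held lineage, sex, %rRNA and lineage by sex, and the fits of 1 sex held lineage and %rRNA. Log2 CPM used a prior count of 2. Relations across rats were tested with 100000 permutations (Python 3.11.15, numpy 2.4.6, scipy 1.17.1, pandas 2.3.3). Alternatives included limma-voom (limma 3.58.1) and DESeq2 1.42.0.

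The 4 genes and all gene lists were chosen with earlier results of these data known. Symbols were matched to 1986 of the 32883 IDs through the part of the study's gene annotation used here, mainly its chromosome 1 genes, and this limit of the matching, not of the study, sets how many Wnt genes and markers could be examined. The rule for naming genes took the 4 genes, Wnt list genes called for lineage or sex (none besides Nkd2), the 3 genes most like each of the 4 where a symbol could be matched, and called neighbors within 500 kb. Its part on the 2 most abundant genes per length of each list could not be applied, since the count table holds no gene lengths, and the other Wnt genes and the neighbors are given by range with examples chosen after their values were seen.

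The labels give 1 male and 1 female the same family code, without saying that they are siblings. In deviations from the subgroup means, the correlation within the 11 complete families ran from -0.72 to 0.78 (median 0.15) and exceeded 0.1 in 6 of 11.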

Additional observations from a re-analysis of the deposited data

How the results depend on the processing

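Nkd2 kept its direction for lineage under all alternatives and its call under all but the fits of 1 sex (0.69 in males alone and 0.81 in females alone). Those fits also left out %intergenic. Fzd6 was called with all 24 rats (0.49) and with %rRNA only (0.56). The causes were not tested beyond the construction of each fit. With 1 rat left out, the lineage Log2FC ranged from 0.73 to 0.86 for Nkd2, 0.33 to 0.47 for Fzd6, 0.04 to 0.11 for Fzd4 and 0.12 to 0.24 for Dkk3. The count of genes called for lineage (185) was 329 with DESeq2, 294 with all 24 rats, 56 without technical covariates, 18 in males alone and 8 in females alone, and with 1 rat left out it was lowest without the bHR male of family H02, at 97, and highest without the bHR female of family H12, at 436. The count for sex (49) was 157 with DESeq2, 21 with library size alone, 13 without technical covariates, 18 with %rRNA only and 75 with RNA concentration added, and with 1 rat left out it was lowest without the H05 bHR male, at 18, and highest without the L06 bLR male, at 159.

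With family as a replicate block, 19 genes were called for sex, and 13 without technical covariates, a fit added after seeing the data. The block gave a sex Log2FC of -0.06 for Nkd2, -0.09 for Fzd6, 0.07 for Fzd4 and -0.18 for Dkk3, and changed no call on the 4 genes. For sex, the 4 genes with 1 rat left out ranged from -0.22 to -0.04 (Nkd2), -0.11 to 0.08 (Fzd6), 0.06 to 0.22 (Fzd4) and -0.23 to -0.05 (Dkk3). For the interaction the ranges were -0.03 to 0.31, -0.14 to 0.11, 0.12 to 0.39 and -0.24 to 0.03. For %rRNA, Fzd4 ranged from -0.34 to -0.25 and Dkk3 from -0.16 to -0.019, and for %intergenic, Fzd6 ranged from 0.14 to 0.22 and Fzd4 from 0.11 to 0.16. No relation among the 4 genes passed with the residuals of the model, and none with LocoScore passed with all 24 rats or with Spearman's rho. The values of r without the 2 farthest rats were not tested. None of the 9 other Wnt genes that could be matched was called for lineage or sex with edgeR, limma-voom, DESeq2, all 24 rats or without technical covariates. Depth limits Fzd6 and Fzd4 most, at 26 to 101 and 33 to 164 counts per rat.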

Other observations

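The labels give 1 male and 1 female the same family code, without saying that they are siblings, and the levels of these 2 rats were set side by side over the 11 families with both, after subtracting the mean of each line and sex. Pearson's r between male and female was 0.19 for Nkd2 (p = 0.603), -0.26 for Fzd6 (p = 0.525), 0.04 for Fzd4 (p = 0.951) and 0.30 for Dkk3 (p = 0.377, 100000 permutations within lines), with a smallest adjusted p of 0.803 over the 4 genes. Spearman's rho was 0.15 for Nkd2 (p = 0.688), -0.33 for Fzd6 (p = 0.400), 0.21 for Fzd4 (p = 0.592) and 0.26 for Dkk3 (p = 0.438, permutation test), with a smallest adjusted p of 0.688. Without the 2 families whose males lay farthest from the median, r was 0.65 for Nkd2, 0.04 for Fzd6, 0.73 for Fzd4 and 0.67 for Dkk3, so these values rest on a few families. In the 3 bLR families whose males were high in Nkd2 (L01, L06 and L09, 12.4, 12.5 and 14.3 CPM), the females had 10.4, 13.3 and 8.63 CPM, and in the other 3 (L03, L07 and L10, 6.42, 7.50 and 6.53 CPM) the females had 8.42, 10.1 and 7.33 CPM. The highest bLR males in Fzd6 were those of L01 and L03 (4.21 and 4.31 CPM), of which L01 was among the families high in Nkd2 and L03 was not, and the females of these 2 families had Fzd6 at 2.09 and 2.83 CPM.

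The bHR female left out for its RIN had Nkd2 at 4.68, Fzd6 at 1.88, Fzd4 at 3.10 and Dkk3 at 401.4 CPM, each within the range of the 5 bHR females kept, in a library of 3.52% rRNA and 14.0% intergenic reads. None of the 16 combinations of gene and subgroup held a rat that Dixon's test set apart.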
